A study of Mus musculus with 18 samples.

Results

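The genes described here encode the splicing machinery that acts on nearly every messenger RNA: SR proteins, core proteins of the small nuclear ribonucleoprotein particles (snRNPs), subunits of splicing factors 3a and 3b, and heterogeneous nuclear ribonucleoproteins (hnRNPs). They were chosen by name alone, as every row of the deposited table in which a gene name begins with Srsf, Sfrs, Snrp, Hnrnp, Sf3a or Sf3b. This gave 56 of 27297 gene rows: 18 rows of SR proteins, 12 of snRNP core proteins, 8 of the SF3 complexes and 18 of hnRNPs. The SR class joins 12 rows named Srsf with 6 rows of SR-related genes that bear an older Sfrs or Srsf name. These are Clasrp, Scaf4, Srek1ip1, Sfrs18, Sfswap and Sugp2, and the SR sums, medians and counts below cover both kinds. Some rows join several names for 1 gene, such as Sfrs3 with Srsf3, and the Hnrnpu row also joins 2 names of cDNA clones. Sfrs18 is the older name of Pnisr and is kept as the table gives it.

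Introns are removed by the spliceosome, which is built on each intron from snRNPs. Each major snRNP other than U6 holds a ring of Sm proteins around its small nuclear RNA. The U2 particle carries SF3A and SF3B, which hold it at the branch point of the intron. SR proteins mostly help the machinery to recognise exons, whereas hnRNPs coat the nascent transcript and often keep splice sites from being used, so that the balance between both families takes part in the choice of exons. Microglia are the resident macrophages of the brain, and they descend from progenitors that arise in the yolk sac and enter the brain during embryonic life.

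Single cells were sorted from untreated C57BL/6J mice in which green fluorescent protein marks cells that express the chemokine receptor CX3CR1, and the 3' ends of their polyadenylated RNA were counted with MARS-seq, a plate-based method with unique molecular identifiers (UMIs). Yolk sac and brain at embryonic day (E) 12.5 were sorted as CD45+ CD11B+ CX3CR1-GFP+ cells. Brain at E18.5 and adult brain were sorted as CD45int CD11Bint CX3CR1-GFP+ cells, so the gate changed together with age, and the adult age was not given in the sources used here. All 4 groups carry the reporter, and the wells of each age carry 1 subject number, so nothing shows that the libraries came from separate animals and the p-values measure only the spread between libraries, which may be technical. The yolk sac group holds 4 libraries with 671 cells, brain at E12.5 4 libraries with 718 cells, brain at E18.5 6 libraries with 992 cells and adult brain 4 libraries with 631 cells.

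The libraries held 269698 to 309084 UMIs in yolk sac, 228467 to 534219 in brain at E12.5, 143876 to 217647 at E18.5 and 74562 to 99494 in the adult, and the median cell held 1511, 1725, 983 and 521 UMIs. Cells with at least 2 UMIs of 44 cell-cycle rows after thinning to 300 UMIs, called cycling here, made up 21.6% of yolk sac cells, 28.0% of brain cells at E12.5, 16.7% at E18.5 and 3.80% in the adult. The summed level of 8 microglial markers was a mean of 248 CPM in yolk sac (counts per 1000000 UMIs of the library, used for all levels below) and 3783, 9877 and 22988 CPM in the brain groups from E12.5 to the adult, and 8 general macrophage markers summed to 24054, 30679, 49458 and 60116. Ribosomal protein rows went the other way (78916, 72872, 47988 and 18521 CPM), and immediate-early genes, which respond to handling of cells, had means of 956, 643, 5267 and 9701. The part of depth, gate, cycling, ribosomal and immediate-early levels in the results below was not tested unless a value is given. Of 6 markers of T, B and NK cells, Nkg7 was the sole one detected. Granulocyte and precursor markers summed to 2945, 9439, 3782 and 2495 CPM in the adult libraries, above every other library (429 to 1542 in yolk sac, 78.9 to 158 in brain at E12.5 and 229.7 to 1272 at E18.5); Prtn3 led them in the adult, while S100a8, S100a9 and Ngp were at 0 there. Erythroid markers ran from 218 to 5124 in yolk sac and reached 3070 in E18.5 library 6, against 0.00 to 171 in the other brain libraries. The part of these markers in the results was not tested.

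Upstream sequences are shown for the member of each class with the lowest adjusted p for any change among the brain stages, among members with an entry in the RefSeq promoter table (GRCm38.p6), a choice made after the values were seen. Of the 56 members 49 had an entry. Each sequence is the 250 bases before the annotated start, 5′ to 3′ on the gene's strand, with capitals marking the ETS core CCGGAA and the CCAAT box on either strand. Srsf5 lies at chr12:80945249-80945498 on the plus strand, Snrpd2 at chr7:19149588-19149837 on the plus strand, Sf3a1 at chr11:4160104-4160353 on the plus strand and Hnrnpc at chr14:52104022-52104271 on the minus strand.
Srsf5: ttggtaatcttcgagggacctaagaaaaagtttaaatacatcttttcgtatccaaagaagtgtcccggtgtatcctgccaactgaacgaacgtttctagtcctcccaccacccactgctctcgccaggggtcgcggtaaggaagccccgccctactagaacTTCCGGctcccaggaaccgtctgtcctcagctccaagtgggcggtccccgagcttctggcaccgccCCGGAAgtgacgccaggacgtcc
Snrpd2: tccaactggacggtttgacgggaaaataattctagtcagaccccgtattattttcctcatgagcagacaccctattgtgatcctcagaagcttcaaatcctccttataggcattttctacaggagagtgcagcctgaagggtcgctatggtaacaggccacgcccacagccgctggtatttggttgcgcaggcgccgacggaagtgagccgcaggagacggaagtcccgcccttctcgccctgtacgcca
Sf3a1: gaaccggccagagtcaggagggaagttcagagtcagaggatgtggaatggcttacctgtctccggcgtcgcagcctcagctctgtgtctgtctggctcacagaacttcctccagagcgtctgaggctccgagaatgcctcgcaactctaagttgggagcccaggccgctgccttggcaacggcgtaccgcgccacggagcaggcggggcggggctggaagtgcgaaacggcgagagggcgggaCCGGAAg
Hnrnpc: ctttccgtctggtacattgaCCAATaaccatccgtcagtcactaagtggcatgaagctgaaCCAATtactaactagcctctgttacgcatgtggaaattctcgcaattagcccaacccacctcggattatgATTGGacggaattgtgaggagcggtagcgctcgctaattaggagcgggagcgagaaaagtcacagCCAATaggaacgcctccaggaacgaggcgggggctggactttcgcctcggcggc
The Srsf5 window holds the ETS core on both strands, Sf3a1 holds it next to the start, Hnrnpc holds 4 CCAAT boxes and Snrpd2 holds neither motif.

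Across the 49 windows, CCGGAA on either strand occurred in 22 (44.9%), against 12.2% of all 27025 windows of the same length in the table. By class it occurred in 7 of 16 SR, 5 of 10 snRNP, 5 of 6 SF3 and 5 of 17 hnRNP windows. CCAAT occurred in 22 (44.9%) of the member windows against 34.5% of all, and 12 of the 22 were hnRNP genes. The E-box CACGTG was found in 4 (8.16%) against 6.05%, TATAAA in 6 (12.2%) against 13.0%, the NRF1 motif GCGCATGC in 1 window (Srsf7, 2.04% against 2.32%) and the E2F motif TTTCGCGC in 0 (against 0.255%). The NRF1 and E2F motifs share the letters GCGC, a match is a description and not a binding site, and member windows were richer in GC than all windows (median 60.4% against 52.0%). Member windows also held more CG pairs (median 19 against 6), and CCGGAA contains such a pair. The part of base composition in these shares was not tested.

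The SR proteins together had 1552 ± 92.3 CPM in yolk sac (SD, n = 4), 1886 ± 171 in brain at E12.5 (n = 4), 2692 ± 211 at E18.5 (n = 6) and 1913 ± 151 in the adult (n = 4), so their sum was highest at E18.5. The snRNP core sum was 1997 ± 184, 2231 ± 375, 1131 ± 67.9 and 892 ± 50.3 in the same order, and its E12.5 libraries of both tissues all lay above those of the later ages. The SF3 sum was 1323 ± 169, 1495 ± 51.4, 1203 ± 92.3 and 915 ± 177. The hnRNP sum was 3520 ± 152, 4153 ± 379, 3907 ± 225 and 2893 ± 189, lowest in the adult. The name rule leaves out other hnRNP-like RNA-binding genes, such as Hnrpdl. Their 33 rows summed to 2651 ± 353, 3049 ± 97.9, 3221 ± 175 and 3574 ± 396, with the highest mean in the adult. All 56 rows together held 8392 ± 444, 9764 ± 491, 8934 ± 300 and 6613 ± 316 CPM. At equal depth, with every kept cell thinned to 300 UMIs, a UMI of the SR class was found in 32.8% of yolk sac cells, 42.1% of brain cells at E12.5, 54.0% at E18.5 and 38.5% in the adult (means over libraries), and one of the snRNP core in 43.1%, 45.2%, 25.7% and 24.2%. The SF3 class gave 32.3%, 37.4%, 27.4% and 21.7%, and the hnRNPs 59.2%, 67.8%, 66.3% and 54.6%. Before thinning these shares were 77.7%, 87.4%, 86.6% and 59.3% for SR proteins, 87.4%, 91.2%, 60.6% and 38.5% for the snRNP core, 75.6%, 84.8%, 62.7% and 37.9% for SF3 and 93.8%, 96.9%, 93.003% and 75.5% for hnRNPs, and no sorted cell type lacks these genes to serve as a background.

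**Figure D1:**
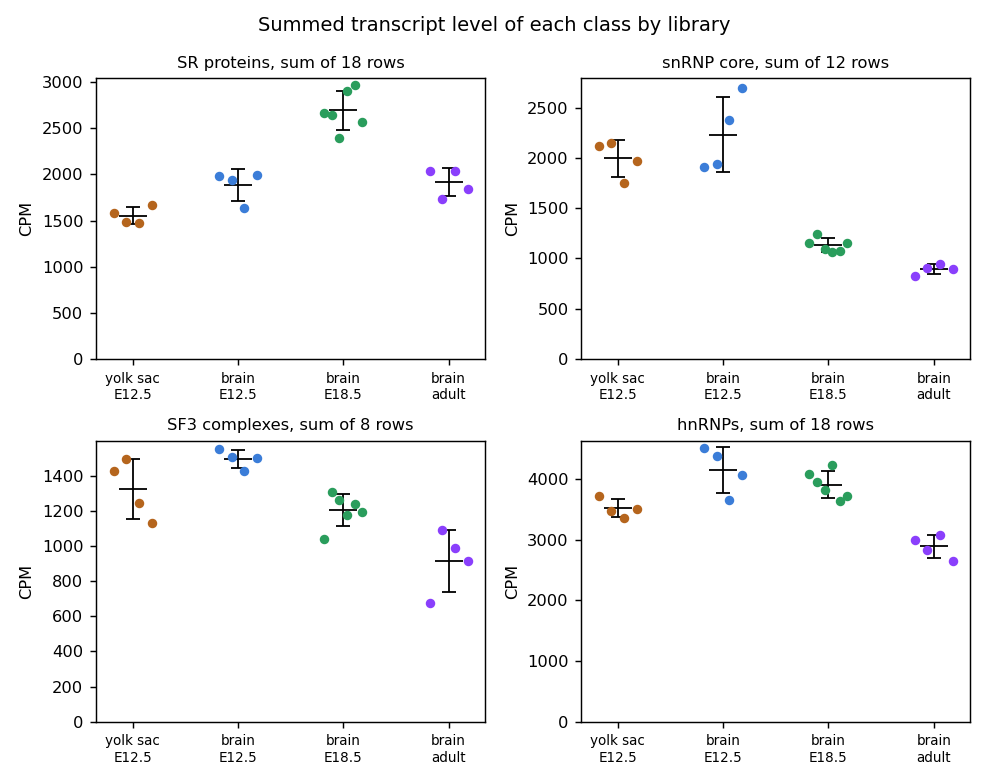
Summed CPM of the 4 classes (vertical axis) in each library of the 4 groups (horizontal axis); points are libraries, the long bar is the mean and the whiskers are 1 SD. SR proteins peak in the E18.5 libraries (2398 to 2964), while every E18.5 and adult library of the snRNP core (824 to 1244) lies below every E12.5 library (1747 to 2696).

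The SR sum was 1978, 1936, 1632 and 1996 CPM in the brain libraries at E12.5, ran from 2398 to 2964 with a median of 2655 at E18.5, and was 2040, 1736, 2037 and 1837 in the adult. The E18.5 libraries lay above all others, while adult and E12.5 libraries overlapped. Within the SR class the Srsf-named rows had means of 1289, 1644, 2281 and 1563 CPM across the groups from yolk sac to the adult. The SR-related rows had 263, 242, 411 and 350. The snRNP sum was 1914, 1941, 2374 and 2696 at E12.5, 1061 to 1244 with a median of 1125 at E18.5, and 824, 901, 946 and 899 in the adult. Within the snRNP class the Sm ring made up most of the sum (1647, 1837, 913 and 687 across the groups), the U1-specific proteins had 226, 227, 118 and 161, and the U2-specific proteins had 124, 168, 101 and 44.0.

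Of the 56 members, 48 had enough UMIs to be tested among 4883 rows in a fit across all 18 libraries with edgeR's quasi-likelihood test, and a member is said to rise or fall where its Benjamini-Hochberg adjusted p was under 0.05. From E12.5 to E18.5 in the brain, 6 members rose and 10 fell (33.3% of the tested members, against 24.5% of all tested rows). From E18.5 to the adult, none rose and 12 fell (25.0% against 21.5%); at an unadjusted p under 0.05, 1 was higher and 17 lower, and DESeq2 called 0 higher and 10 lower. Between E12.5 and the adult, 3 were higher in the adult and 19 lower (45.8% against 38.6%). The 3 comparisons share libraries, so they are not independent of each other. Any change among the 3 brain stages was called for 25 of 48 members (52.1% against 42.2%). The shares of members called were not far above those of all rows. From E18.5 to the adult all 12 calls were downward, where 10.3% of all rows rose and 11.2% fell, and the median log2 change of the members was −0.37 against −0.03 for all rows, with 39 of 48 below 0.

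By class, most calls from E12.5 to E18.5 were upward in SR proteins and all were downward in the snRNP core. From E12.5 to E18.5, 4 of 14 tested SR rows rose and 1 fell, 0 of 10 snRNP rows rose and 7 fell, 0 of 8 SF3 rows rose and 1 fell, and 2 of 16 hnRNP rows rose and 1 fell, beside 11.1% of all rows that rose and 13.4% that fell. The median log2 changes were 0.47 for SR proteins, −1.03 for snRNP proteins, −0.30 for SF3 and −0.07 for hnRNPs, against −0.03 over all rows. Of the SR rows 13 of 14 lay above 0, and of the snRNP rows 9 of 10 lay below. Of the 4 SR rows that rose, Srsf5 and Srsf6 are Srsf-named, and Sfrs18 and Sfswap are SR-related. The libraries of the 2 ages did not overlap for 5 members that were higher and 8 that were lower at E18.5, beside 18.7% of all rows in either direction. With sequencing batch as a covariate, which can be fitted only through the yolk sac libraries because no batch holds both E12.5 brain and a later age, 1 member rose (Srsf5) and 3 fell (Snrpa, Snrpd1 and Snrpd2). Without brain E12.5 library 3, 2 members rose, and without the second E12.5 brain plate (libraries 3 and 4), 2 rose and 3 fell.

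**Figure D2:**
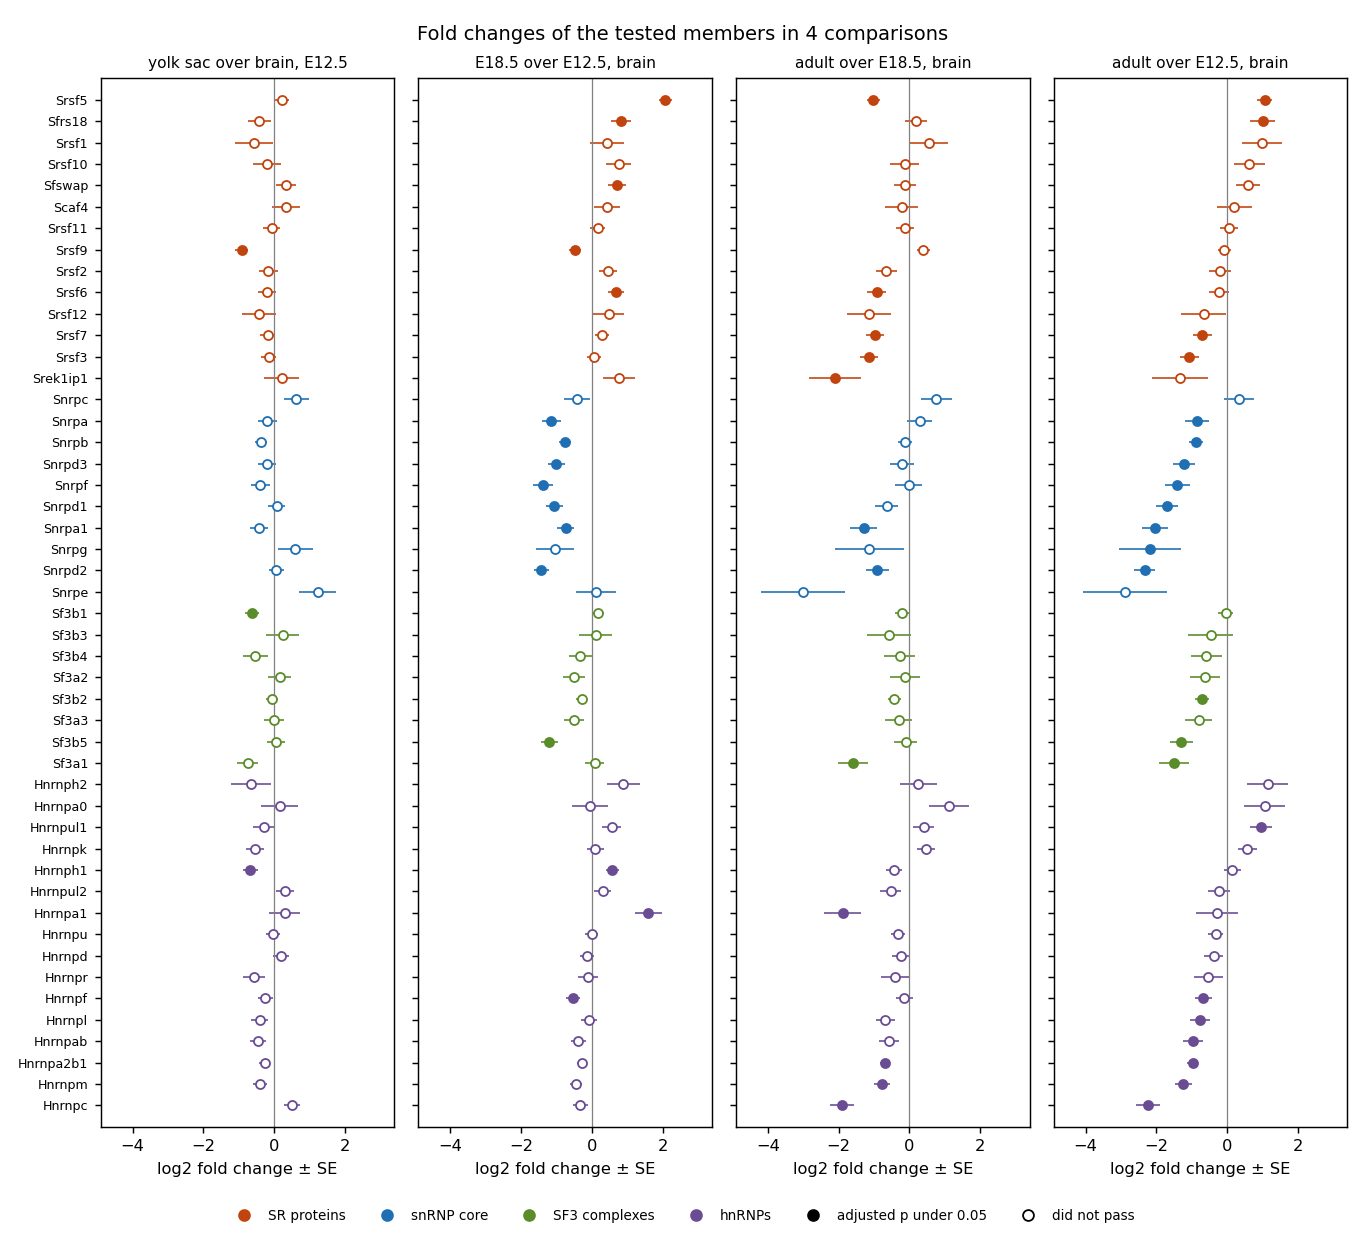
Log2 fold changes (horizontal axis) with standard errors for the tested members, grouped by class, in the comparisons between groups; filled points passed an adjusted p of 0.05 in edgeR's quasi-likelihood test. SR proteins lie mostly to the right and snRNP core proteins to the left between E12.5 and E18.5, and 39 of 48 members lie left of 0 between E18.5 and the adult.

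Among the SR proteins, Srsf5, a regulator of splice-site choice, had the largest rise from E12.5 to E18.5. It had 144, 174, 171 and 189 CPM in the yolk sac libraries, 166, 167, 111 and 144 in brain at E12.5, 542 to 745 with a median of 616 at E18.5, and 342, 219.8, 364 and 295 in the adult. All E18.5 libraries lay above all adult libraries, and all adult libraries lay above all libraries from E12.5. Srsf5 rose by 2.08 on the log2 scale (SE 0.18, edgeR adjusted p = 6.09e-12) from E12.5 to E18.5, fell by 1.02 (SE 0.19, adjusted p = 6.78e-05) from E18.5 to the adult, and remained 1.06 (SE 0.21, adjusted p = 6.95e-05) above E12.5 in the adult. Each of these calls held under every alternative that was run, sequencing batch included. Between yolk sac and brain at E12.5 its difference was 0.23 (adjusted p = 0.518).

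Srsf3, an SR protein that also takes part in mRNA export, fell into the adult and did not pass between E12.5 and E18.5 (log2 difference 0.07, adjusted p = 0.995). It had 285, 258, 167 and 197 CPM at E12.5, 177 to 276 with a median of 249 at E18.5, and 141, 76.9, 125 and 80.5 in the adult. No adult library reached an E18.5 or E12.5 library. Srsf3 fell by 1.14 on the log2 scale from E18.5 (SE 0.25, adjusted p = 0.000872) and the change from E12.5 was −1.07 (SE 0.26, adjusted p = 0.00114), which was not called with batch as a covariate. Srsf7, which shares the export role, had 212, 174, 184 and 201 CPM at E12.5, 202 to 271 with a median of 238 at E18.5 and 141, 87.9, 104 and 134 in the adult. Its log2 changes to the adult were −0.98 (SE 0.25, adjusted p = 0.00368) from E18.5 and −0.70 (SE 0.26, adjusted p = 0.0318) from E12.5, without overlap of the libraries.

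Srsf6, another SR protein, rose and fell again with overlapping libraries. It had 229, 189, 90.0 and 223 CPM at E12.5, 210.2 to 375 with a median of 301 at E18.5, and 151, 98.9, 135 and 241 in the adult. Its log2 changes were 0.69 (SE 0.22, adjusted p = 0.0195) to E18.5 and −0.92 (SE 0.27, adjusted p = 0.00976) from there to the adult. With batch as a covariate the rise of Srsf6 was not called. Sfrs18, a protein rich in arginine and serine, rose by 0.82 (SE 0.28, adjusted p = 0.0306) to E18.5, from 80.9, 65.5, 64.3 and 56.9 to 83.0 to 175 with a median of 120.4, and had 181, 87.9, 197 and 53.6 in the adult. Sfswap, named after a splicing regulator of the fruit fly, had 87.0, 78.6, 64.3 and 56.9 at E12.5 and 75.7 to 181 with a median of 113 at E18.5, an overlap, with a log2 change of 0.71 (SE 0.26, adjusted p = 0.0444). Of 21 alternatives, 10 lost the E18.5 call for Sfrs18 and 13 that for Sfswap.

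Srsf9 followed another course from that of the other SR genes. It had 299.7, 276, 226 and 193 CPM in yolk sac, 435, 460.5, 484 and 560.3 in brain at E12.5, 278 to 404 with a median of 347 at E18.5, and 492, 505, 436 and 362 in the adult. It was the sole SR gene that fell from E12.5 to E18.5, by 0.47 on the log2 scale (SE 0.16, adjusted p = 0.0301), and every E18.5 library lay below every E12.5 brain library. Srsf9 was not called in this step with batch as a covariate or without the second E12.5 brain plate. Its adult difference from E18.5, 0.40 with overlapping libraries, did not pass (adjusted p = 0.115). Srek1ip1, named for its binding to the SR-related protein SREK1, had 18.9 to 63.8 with a median of 54.2 at E18.5 and 10.1, 0.00, 31.2 and 0.00 in the adult, a fall by 2.09 (SE 0.73, adjusted p = 0.0354) that rests on 4 adult UMIs and was lost under 5 of 12 alternatives. Srsf11 did not pass from E18.5 to the adult (log2 difference −0.12, adjusted p = 0.794).

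In the snRNP core, 5 of the 7 tested Sm ring proteins fell between E12.5 and E18.5. Snrpd2 had 385, 410.0, 320.3 and 397 CPM in yolk sac, 339.9, 320.1, 446 and 381 in brain at E12.5, 86.0 to 215 with a median of 134 at E18.5, and 60.3, 132, 41.6 and 53.6 in the adult. Every library from E12.5, of either tissue, lay above every later one. Snrpd2 fell by 1.42 on the log2 scale (SE 0.21, adjusted p = 2.21e-06) to E18.5 and was lower by 2.33 (log2 change −2.33, SE 0.30, adjusted p = 3.08e-08) in the adult than at E12.5. Both calls held under every alternative that was run. The further step from E18.5 to the adult, −0.91 (SE 0.31, adjusted p = 0.0331), had overlapping libraries and was lost under 9 of 19 alternatives.

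Snrpf, Snrpd1, Snrpb and Snrpd3, partners of Snrpd2 in the ring, fell as well. Snrpf had 168, 153, 219 and 249 CPM at E12.5, 45.9 to 132 with a median of 67.7 at E18.5, and 40.2, 98.9, 93.5 and 53.6 in the adult, with a log2 change of −1.38 (SE 0.27, adjusted p = 0.000185) to E18.5. Snrpd1 had 243, 251, 364 and 442 at E12.5, 96.5 to 239.8 with a median of 155 at E18.5, and 60.3, 87.9, 114 and 134 in the adult, with a log2 change of −1.05 (SE 0.24, adjusted p = 0.00107). Snrpb, an Sm protein with a C-terminal tail, had 564, 578, 643 and 809.7 at E12.5, 303 to 432 with a median of 409 at E18.5, and 382, 319, 364 and 308 in the adult, with a log2 change of −0.76 (SE 0.16, adjusted p = 0.000527). In none of these did an E18.5 library reach an E12.5 brain library. Snrpd3 changed by −1.004 (SE 0.25, adjusted p = 0.00211). From E12.5 to the adult the log2 changes were −1.41 for Snrpf (adjusted p = 0.00167), −1.70 for Snrpd1 (adjusted p = 5.15e-05), −0.89 for Snrpb (adjusted p = 0.00034) and −1.22 for Snrpd3 (adjusted p = 0.00253), whereas from E18.5 to the adult Snrpb (−0.13, adjusted p = 0.687) and Snrpd1 (−0.64, adjusted p = 0.166) did not pass. With batch as a covariate the E18.5 calls for Snrpf, Snrpb and Snrpd3 were lost, while that for Snrpd1 was kept. Without the second E12.5 brain plate those for Snrpd1, Snrpb and Snrpd3 were lost, while that for Snrpf was kept.

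The small Sm proteins Snrpe and Snrpg were counted rarely. Snrpg had 64 UMIs at E12.5 in the brain and 3 in the adult, so that its share was 5.17 times as high at E12.5 (95% interval of the ratio 1.69 to 25.7, counting error only). Its fitted log2 change was −2.18 (SE 0.88, adjusted p = 0.0455), which 10 of 16 alternatives lost. Snrpe had 40 UMIs at E12.5 and 1 in the adult, a ratio of 9.70 (95% interval 1.64 to 392), and its test gave an adjusted p of 0.0505.

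Of the proteins specific to 1 particle, Snrpa and Snrpa1 fell and Snrpc did not pass. Snrpa, a protein of U1, had 149.7, 124, 184 and 210.1 CPM at E12.5, 41.4 to 111 with a median of 75.1 at E18.5, and 70.4, 76.9, 93.5 and 121 in the adult. It fell by 1.15 (SE 0.27, adjusted p = 0.00136) to E18.5 without overlap, and stood at −0.85 (adjusted p = 0.0403) in the adult against E12.5. Without the second E12.5 brain plate the E18.5 call was lost (adjusted p = 0.0854). Snrpc, another protein of U1, did not pass at any step, with a log2 difference of −0.42 (adjusted p = 0.418) at E18.5 and 0.34 (adjusted p = 0.545) in the adult against E12.5. Snrpa1, a protein of U2, had 137, 134, 107 and 96.4 in yolk sac, 107, 193, 159 and 201 in brain at E12.5, 69.5 to 133 with a median of 96.4 at E18.5, and 40.2, 33.0, 41.6 and 40.2 in the adult. Its adult libraries lay together below all others. It fell by 0.74 (SE 0.24, adjusted p = 0.0188) to E18.5 with overlap, a call lost under 12 of 21 alternatives, and its log2 changes were −1.30 (SE 0.38, adjusted p = 0.0101) from there to the adult and −2.04 (SE 0.36, adjusted p = 1.66e-05) over both steps, of which the former was lost with at least 500 UMIs per cell.

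**Figure D3:**
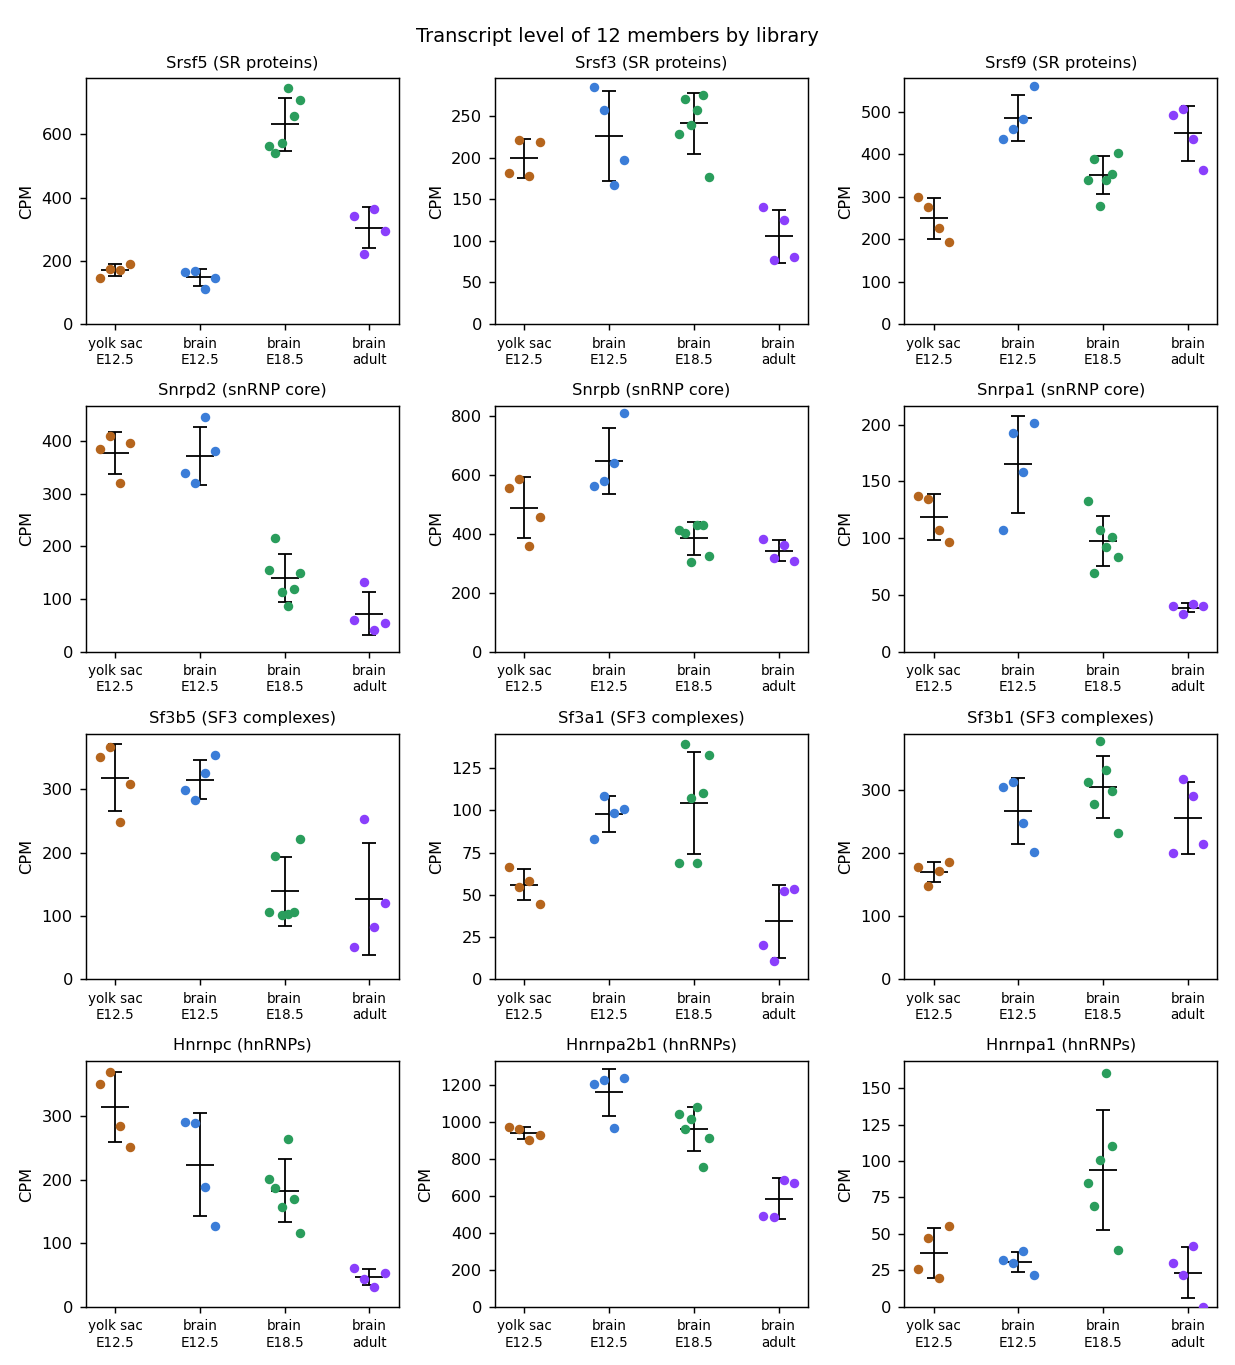
CPM of 12 members (vertical axes, each from 0) in each library of the 4 groups (horizontal axis); points are libraries, the long bar is the mean and the whiskers are 1 SD. Srsf5 is highest at E18.5 (542 to 745), Snrpd2 is high in both E12.5 tissues (320.1 to 446) and low later (41.6 to 215), and Hnrnpc is lowest in the adult (31.2 to 60.3).

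Of the SF3 subunits, the small SF3B protein Sf3b5 fell early and Sf3a1 fell late. Sf3b5 had 352, 367, 249 and 308 CPM in yolk sac, 299, 283, 326 and 355 in brain at E12.5, 101 to 221 with a median of 106 at E18.5, and 50.3, 253, 83.1 and 121 in the adult. The E18.5 libraries lay below all E12.5 libraries, while adult library 2 overlapped the yolk sac libraries. The log2 change was −1.20 (SE 0.25, adjusted p = 0.000573) to E18.5 and −1.30 (SE 0.32, adjusted p = 0.00158) from E12.5 to the adult, and neither was called with batch as a covariate. Sf3a1, a subunit of the U2-bound SF3A trimer, had 66.6, 54.4, 58.2 and 44.5 in yolk sac, 82.9, 109, 98.5 and 101 in brain at E12.5, 68.8 to 139 with a median of 109 at E18.5, and 20.1, 11.0, 52.0 and 53.6 in the adult. It fell by 1.59 (SE 0.41, adjusted p = 0.00403) from E18.5 to the adult, with no overlap, and by 1.51 (SE 0.42, adjusted p = 0.00412) from E12.5, of which the second was lost with batch as a covariate.

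The large SF3B subunits moved less. Sf3b2 had 550.3, 487, 411 and 433 CPM at E12.5, 321 to 450.3 with a median of 397 at E18.5 and 201, 363, 281 and 295 in the adult. Its log2 change was −0.71 (SE 0.20, adjusted p = 0.00392) from E12.5 to the adult, without overlap, a call that was lost with batch as a covariate and with libraries thinned to 1 depth. The single steps, −0.28 (adjusted p = 0.199) and −0.42 (adjusted p = 0.108), did not pass. Sf3b1, which contacts the branch point region and is often mutated in blood cancers, did not pass in the brain at any step, with differences of 0.18 (adjusted p = 0.511) at E18.5 and −0.22 (adjusted p = 0.499) from there to the adult.

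Among the hnRNPs, Hnrnpc, which binds uridine tracts of nascent transcripts, had the largest fall into the adult. It had 352, 370.1, 285 and 252 CPM in yolk sac, 291, 290.1, 189 and 127 in brain at E12.5, 116 to 264 with a median of 179 at E18.5, and 60.3, 44.0, 31.2 and 53.6 in the adult. The adult libraries lay below all others. Hnrnpc changed by −1.91 on the log2 scale (SE 0.34, adjusted p = 4.86e-05) from E18.5 to the adult and by −2.23 (SE 0.34, adjusted p = 1.26e-06) from E12.5, and both calls held under every alternative that was run. Hnrnpm, a splicing regulator, had 469, 431, 386 and 350.2 at E12.5, 229.7 to 383 with a median of 291 at E18.5 and 221, 198, 125 and 134 in the adult. It fell by 0.79 (SE 0.22, adjusted p = 0.00876) from E18.5 and by 1.23 (SE 0.23, adjusted p = 3.25e-05) from E12.5 under every alternative run, with the adult libraries below all others in the brain.

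The related proteins Hnrnpa2b1 and Hnrnpa1, which often repress splice sites, differed in their course. Hnrnpa2b1, the member with the most UMIs, had 969, 962, 899 and 927 CPM in yolk sac, 1206, 1226, 968 and 1234 in brain at E12.5, 754 to 1078 with a median of 988 at E18.5, and 492, 484, 686 and 671 in the adult. It fell by 0.69 (SE 0.15, adjusted p = 0.000825) from E18.5 to the adult and by 0.97 (SE 0.16, adjusted p = 5.71e-06) from E12.5, with no overlap in either. Hnrnpa1 had 32.4, 30.0, 38.6 and 21.9 at E12.5, 38.7 to 161 with a median of 92.98 at E18.5, and 30.2, 22.0, 41.6 and 0.00 in the adult. It rose by 1.60 (SE 0.38, adjusted p = 0.00167) to E18.5 and fell by 1.88 (SE 0.52, adjusted p = 0.00735) to the adult, the latter with overlap, and the rise was lost with batch as a covariate and the fall with at least 500 UMIs per cell. The Hnrnpa1 transcript shares stretches of 100 bases with 9 other genes or pseudogenes in its last 1000 bases, so its counts are uncertain.

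Hnrnph1 and Hnrnpf, which bind runs of guanosine, went in opposite directions to E18.5. Hnrnph1 had 167, 102, 87.4 and 174 CPM in yolk sac, 223, 217, 193 and 232 in brain at E12.5, 264 to 391 with a median of 325 at E18.5, and 251, 231, 291 and 161 in the adult. It rose by 0.58 (SE 0.20, adjusted p = 0.0255), with every E18.5 library above every E12.5 library. Hnrnpf had 295, 273, 326 and 429 at E12.5 and 188 to 288 with a median of 229.5 at E18.5, an overlap, and fell by 0.53 (SE 0.20, adjusted p = 0.0446). The first call was lost under 8 and the second under 17 of 21 alternatives. Against E12.5 the adult was also lower in Hnrnpab by 0.96 (log2 change −0.96, adjusted p = 0.00583), Hnrnpf (−0.68, adjusted p = 0.0239) and Hnrnpl (−0.76, adjusted p = 0.0285), and it was higher in Hnrnpul1 (0.97, adjusted p = 0.0131).

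Hnrnpu, a nuclear matrix protein that binds chromatin and RNA, and Hnrnpk, which binds cytosine-rich RNA, passed in no comparison between groups. Hnrnpu had 605, 621, 356 and 276 CPM at E12.5 in the brain, 332 to 549 with a median of 495 at E18.5 and 392, 385, 405 and 282 in the adult. The first 2 E12.5 libraries, of plate 1, were high and the other 2, of plate 2, were low, with a log2 difference of −0.85 between the plates. Hnrnpk differed by 0.47 (adjusted p = 0.193) between the adult and E18.5, and by 0.57 (adjusted p = 0.0918) between the adult and E12.5. The latter difference was called under 6 of 19 alternatives. For Hnrnpu the adult difference from E12.5 was −0.32 (adjusted p = 0.234), and it was called under 2 of 19.

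From E12.5 to the adult, the class counts were 2 higher and 2 lower of 14 SR rows, 0 higher and 8 lower of 10 snRNP rows, 0 higher and 3 lower of 8 SF3 rows, and 1 higher and 6 lower of 16 hnRNP rows, beside 17.8% of all rows that were higher and 20.7% lower. Median log2 changes were −0.01, −1.55, −0.67 and −0.35 in that order, against −0.07 over all rows. Without overlap of the libraries were 2 higher and 18 lower members, beside 34.3% of all rows in either direction. With batch as a covariate 9 members were lower, and with all libraries thinned to 74562 UMIs 12 were. Without the first E12.5 brain plate 1 member was higher.

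From E18.5 to the adult, 5 SR, 2 snRNP, 1 SF3 and 4 hnRNP rows fell, and the medians were −0.44, −0.43, −0.28 and −0.43. The libraries did not overlap for 8 of the members, all lower in the adult, beside 16.8% of all rows. The groups share 1 sequencing batch. With cycling cells left out, 0 members rose and 10 fell in this step, 5 rose and 7 fell from E12.5 to E18.5, and 4 were higher and 14 lower in the adult than at E12.5.

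Between tissues at E12.5 few members differed. Of 48 members, 0 were higher in yolk sac and 3 lower (6.25%, against 15.9% of all rows, 7.04% higher and 8.81% lower); at an unadjusted p under 0.05, 2 were higher and 7 lower, and DESeq2 called 0 higher and 2 lower. The 3 were Srsf9, lower by 0.92 on the log2 scale (log2 difference −0.92, SE 0.18, adjusted p = 0.000158), Sf3b1 (−0.61, SE 0.20, adjusted p = 0.0273) and Hnrnph1 (−0.67, SE 0.22, adjusted p = 0.0308). In each of them all yolk sac libraries lay below all brain libraries, as in 7 members in all, all lower in yolk sac, beside 19.9% of all rows in either direction. The values for Sf3b1 were 178, 149, 171 and 185 CPM in yolk sac and 305, 313, 249 and 201 in brain. The call for Srsf9 held under every alternative run, while that for Sf3b1 was lost under 11 and that for Hnrnph1 under 16 of 20, and 1 member was lower without brain library 1, brain library 2, yolk sac library 2 or yolk sac library 3. The markers of yolk sac and border macrophages summed to 5020 CPM in yolk sac and 185 in brain, and erythroid markers to 2328 and 73.6, and their part in these differences was not tested.

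Other members with many UMIs did not pass between the tissues. The log2 differences, yolk sac over brain, were 0.07 for Snrpd2 (adjusted p = 0.903), −0.37 for Snrpb (adjusted p = 0.175), −0.05 for Sf3b2 (adjusted p = 0.907), 0.06 for Sf3b5 (adjusted p = 0.928) and −0.27 for Hnrnpa2b1 (adjusted p = 0.277). For Hnrnpu the difference was −0.04 (adjusted p = 0.936) over all libraries and 0.51 within the sequencing batch that both tissues share, where Hnrnpu and Hnrnpc were higher in yolk sac and Hnrnpab, Hnrnpf and Srsf9 lower.

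In all, 29 members were called in at least 1 of the 4 comparisons between groups, 21 in at least 2 and 3 in at least 3 (Srsf5, Snrpd2 and Snrpa1), while 19 tested members were called in none. Single comparisons called 15.9% to 38.6% of all rows. The share of all rows called in at least 1, 2 or 3 comparisons was not counted, so these numbers are not read as a trait of the members. The other 8 members had too few UMIs for a test: Sugp2 with 111 UMIs in all, Clasrp with 91, Hnrnpa3 with 63, Snrpn joined with Snurf with 41, Srsf4 with 40, Snrpb2 with 14, Hnrnph3 with 13 and Srsf13b with 1. Snrpn with Snurf, which encodes a tissue-restricted Sm protein from an imprinted locus, had 0 UMIs in the adult libraries, which allows up to 8.30 CPM.

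Within groups, members were also compared between cycling and other cells of the same libraries, with the library as a block. The class is cut from a score per cell, and 66 yolk sac, 101 E12.5 brain and 83 E18.5 cells lay exactly at the threshold of 2 UMIs, with 161, 179 and 217 cells just below at 1. In yolk sac 10 of 33 tested members were higher in cycling cells and 0 lower (30.3%, against 15.0% of tested rows, 7.41% higher and 7.56% lower). In brain at E12.5 it was 5 of 36 and 0 (13.9% against 7.37%, 4.05% higher and 3.32% lower), and at E18.5 4 of 24 and 0 (16.7% against 5.90%, 3.89% higher and 2.01% lower). No member was lower in cycling cells at an unadjusted p under 0.05, and DESeq2 was not run on this comparison. The median log2 differences of the members were 0.45, 0.26 and 0.46, beside 0.01, 0.00 and −0.01 over all tested rows. Adult cells were not tested since few of them cycled.

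The mean sum of each class was higher in cycling cells in all 3 groups. In yolk sac the snRNP sum was 2731 CPM in cycling and 1754 in other cells, and the hnRNP sum 4856 and 3082. In brain at E12.5 the same sums were 2578 and 2072, and 4934 and 3794, and at E18.5 they were 1460 and 1056, and 4957 and 3691. The SR sum was 2079 and 1381, 2226 and 1728, and 3093 and 2614 in the same groups, and the SF3 sum 1486 and 1269, 1698 and 1401, and 1390 and 1151. The snRNP sum of cycling cells at E18.5 lay below that of the other cells at E12.5 (1460 ± 325 against 2072 ± 342, SD, n = 6 and 4), a difference that was not tested. The median cell of each library had 1338 to 1661 UMIs among cycling and 1407.5 to 1772 among other cells in yolk sac, 1361.5 to 2519 and 1053 to 2537 in brain at E12.5, and 974 to 1387 and 732 to 1274.5 at E18.5 (lowest to highest library). Cycling cells were the deeper class in 1 of 4, 3 of 4 and 6 of 6 of these libraries, and the part of depth in the differences was not tested.

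**Figure D4:**
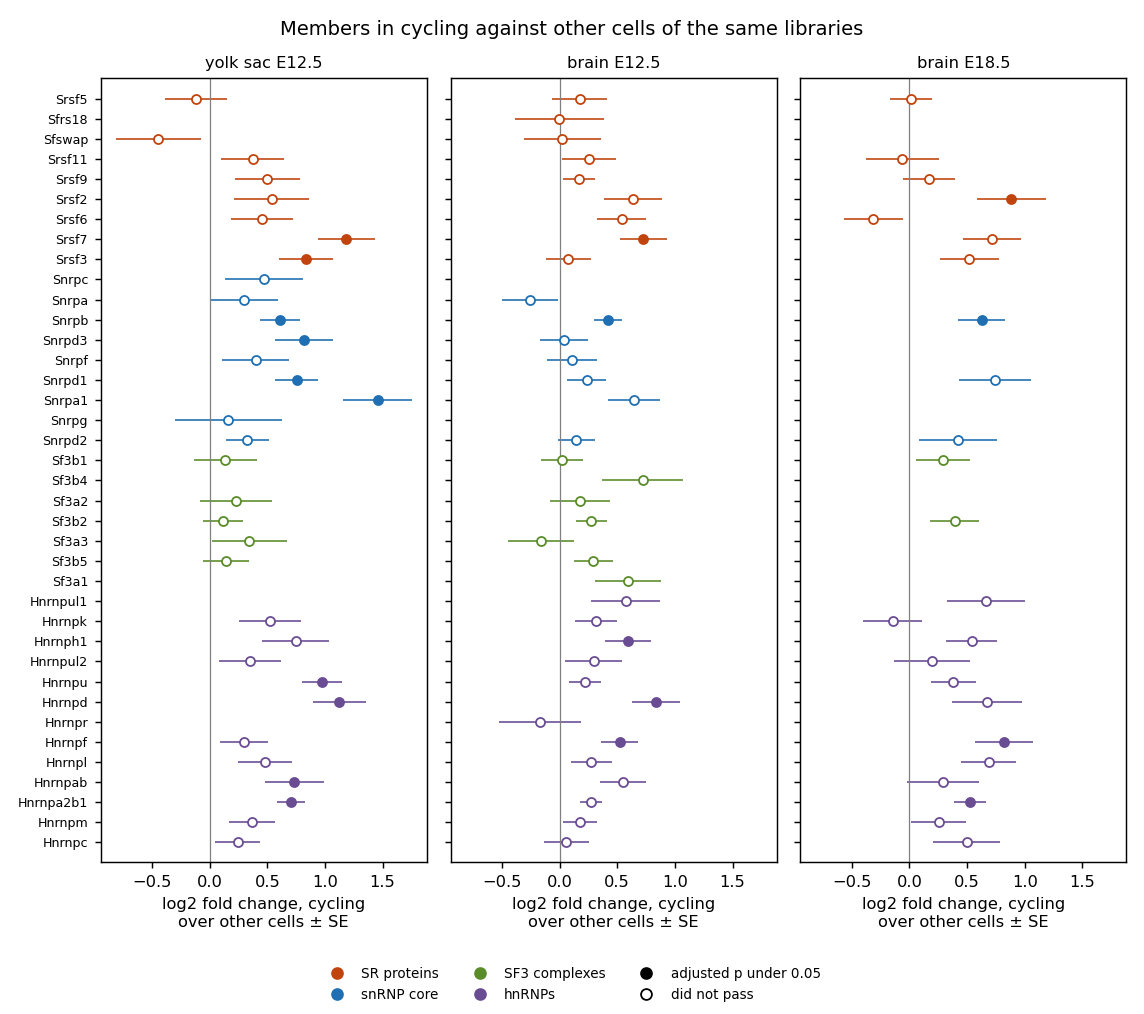
Log2 fold change of cycling over other cells (horizontal axis) with its standard error for each tested member (rows, coloured by class) in yolk sac, E12.5 brain and E18.5 brain; filled points passed an adjusted p of 0.05 in edgeR's quasi-likelihood test. Most points lie right of 0 (31 of 33 in yolk sac), led by Snrpa1 at 1.46, Srsf7 at 1.19 and Hnrnpd at 1.12 in yolk sac.

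The members with the largest differences in yolk sac were Snrpa1, with 234 ± 79.0 CPM in cycling and 80.9 ± 11.9 in other cells (SD, n = 4), Srsf7, with 288 ± 61.2 and 125 ± 42.5, and Hnrnpd, which binds AU-rich mRNAs. Their log2 differences were 1.46 (SE 0.30, adjusted p = 0.000261), 1.19 (SE 0.25, adjusted p = 0.000341) and 1.12 (SE 0.23, adjusted p = 0.000297), and each was higher in cycling cells of 4 of 4 libraries. Hnrnpu had 714 ± 136 and 355 ± 42.6 (0.97, SE 0.18, adjusted p = 4.7e-05), Srsf3 differed by 0.83 (adjusted p = 0.00998) and Snrpd3 by 0.82 (adjusted p = 0.0196). In brain at E12.5, Srsf7 (0.73, adjusted p = 0.00904), Snrpb (0.42, adjusted p = 0.0117), Hnrnpd (0.84, adjusted p = 0.00173), Hnrnph1 (0.59, adjusted p = 0.0384) and Hnrnpf (0.52, adjusted p = 0.0251) were higher in cycling cells. At E18.5 these were Srsf2 (0.88, adjusted p = 0.048), Snrpb (0.63, adjusted p = 0.0425), Hnrnpf (0.82, adjusted p = 0.0255) and Hnrnpa2b1 (0.52, adjusted p = 0.00443). Of 9 alternatives, 4 lost the yolk sac call for Srsf3 and 6 that for Snrpd3, and in brain at E12.5 6 lost Srsf7, 6 Snrpb, 8 Hnrnph1 and 2 Hnrnpd. At E18.5, of 11 alternatives, 8 lost Srsf2, 8 Snrpb, 7 Hnrnpf and 3 Hnrnpa2b1, all 4 without a filter on low counts and the first 3 also at a threshold of 3 cell-cycle UMIs or with no library block. The number of calls rested on single libraries: 6 were called in yolk sac without library 1, 3, 3 and 2 in brain at E12.5 without library 1, 2 or 3, and 1, 0, 1 and 2 at E18.5 without library 3, 4, 5 or 6.

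Other genes of the splicing pathway were read from the same fit, and their counts stand beside the shares of all rows above. Of 6 tested LSm proteins, most of which form the ring of U6, 2 fell from E12.5 to E18.5, and Lsm4 had 369 ± 87.6 CPM at E12.5 (SD, n = 4), 180 ± 35.1 at E18.5 (n = 6) and 106 ± 19.4 in the adult (n = 4), with log2 changes of −1.03 (adjusted p = 0.000129) and −0.74 (adjusted p = 0.0447). Lsm2 and Lsm4 were called lower in the adult than at E12.5 (−1.84 and −1.77). Of 19 tested proteins of the Prp19 complex and the tri-snRNP, 1 rose (Prpf38b, 0.80, adjusted p = 0.00848) and 3 fell to E18.5, 1 rose (Snrnp27) and 2 fell from E18.5 to the adult, and 0 were higher and 7 lower in the adult than at E12.5. A row among the 3 and the 7 joins Txnl4a with Naa10, so its counts cannot be credited to Txnl4a. Snrnp27 and Snrnp40 of this list are counted again among the genes named Snrnp. Of 5 tested genes named Snrnp, 2 fell to E18.5, of which Snrnp25, from the minor spliceosome, changed by −1.12 (adjusted p = 0.0277). The other, Snrnp27 of the tri-snRNP, changed by −0.72 (adjusted p = 0.0416) and rose again by 0.85 (adjusted p = 0.0457) to the adult, with 120.4 ± 15.9 CPM at E12.5 (SD, n = 4), 73.9 ± 25.5 at E18.5 (n = 6) and 129 ± 11.7 in the adult (n = 4); it was the sole tested gene of that name to rise in this step, and 0 fell. From E12.5 to the adult 0 were higher and 2 lower. Of 6 tested genes of snRNP assembly 2 were lower in the adult than at E12.5, among them Prmt5, the methyltransferase that modifies Sm proteins (−1.42, adjusted p = 0.00255). Prmt5 also fell from E18.5 to the adult (−1.10). Of 8 tested U2 recruitment factors 1 was lower in the adult than at E12.5 (Phf5a, an SF3B subunit, −1.16, adjusted p = 0.00248).

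Of 14 tested SR-like regulators, Tra2a, which binds purine-rich exon enhancers, rose to E18.5 from 23.1 ± 9.59 CPM (SD, n = 4) to 75.3 ± 25.0 (n = 6), by 1.59 on the log2 scale (adjusted p = 0.00203), and its row joins clone names. In the adult against E12.5, 2 of these were higher and 1 lower. From E18.5 to the adult, Rbm5 and Srrm1 fell (log2 changes −1.40 and −0.81) and Tra2b rose (0.79). Between tissues at E12.5, Srrm2 and Rbm39 were called lower in yolk sac (−0.67 and −0.55). Of 24 tested hnRNP-like RNA-binding proteins, 2 rose and 1 fell to E18.5, and 5 were higher and 2 lower in the adult than at E12.5. From E18.5 to the adult, Cirbp rose (1.60) and Tardbp fell (−2.46, to a mean of 6.10 CPM). Qk was called lower in yolk sac than in brain at E12.5 (−1.45). Of 8 tested genes of the exon junction complex and mRNA export, 1 was higher and 4 lower in the adult than at E12.5; 1 of the 4 is a row that joins Bat1a with the class I genes H2-Q6, H2-Q7 and H2-Q9, so its counts cannot be credited to Bat1a. Ddx39, an export helicase, had 99.1 ± 25.1 at E12.5 (SD, n = 4) and 13.0 ± 9.73 in the adult (n = 4). From E18.5 to the adult Ddx39 also fell (−2.51) and Rnps1 rose (1.24). Thoc4 and Rbm8a fell from E12.5 to E18.5 (−0.81 and −0.62). Of 4 tested SR protein kinases and partners, edgeR called 0 in each of the 4 comparisons between groups, with 1 at an unadjusted p under 0.05 (E18.5 against E12.5); DESeq2 calls were not counted for these lists.

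Plates of the same group also differed in some members. Between the 2 plates of yolk sac, which were sequenced in separate batches, 2 members differed, beside 6.08% of all rows (4.22% higher and 1.86% lower on the second): Hnrnpk (log2 difference of the second plate over the first −1.12) and Sf3a2 (−1.27). Between the 2 plates of brain at E12.5, also in separate batches, 4 differed, beside 10.2% of all rows (3.97% higher and 6.21% lower): Hnrnpu (−0.85), Hnrnpc (−0.77), Sf3a2 (1.07) and Snrpd1 (0.81). Among the 3 plates at E18.5 edgeR called 0 members, with 8 at an unadjusted p under 0.05 and 1.21% of all rows called, and between the adult plates 0, with 1 unadjusted and 0.0205% of all rows. DESeq2 was not run between plates.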

How the data were processed

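Cells were sorted into plates and their 3' polyadenylated RNA was sequenced by MARS-seq; the authors deposited 1 table of UMI counts, genes by wells, with a well annotation that gives library, plate, sequencing batch and number of cells. Demultiplexing used bcl2fastq 2.15.0.4 and the genome build was mm9, per the submitters' processing notes; for the aligner, UMI collapsing and annotation, nothing is stated in the labels or the table header. The deposited counts are whole numbers, and 2109 rows join several gene names. Of 3420 wells with 1 cell, 3012 with at least 300 UMIs were kept and 408 left out; 36 empty wells were set aside. Counts were summed per library (18 libraries on 9 plates in 3 sequencing batches), groups were taken from the sample labels, and levels are CPM, counts per 1000000 UMIs of the library.

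Rows were tested with edgeR 4.0.16 (R 4.3.3, limma 3.58.1): TMM, filterByExpr, a robust quasi-likelihood fit of all 18 libraries and Benjamini-Hochberg adjustment over 4883 rows, called at an adjusted p under 0.05. Cycling and other cells were summed per library and fitted with the library as a block, and plates were fitted as groups. Alternatives were RLE size factors, no filter, DESeq2 1.42.0, only the groups compared, at least 500 UMIs per cell, sequencing batch, sums per plate, thinning, no cycling cells, other cycling thresholds, no library block, and leaving out libraries or plates. The fits were tested on simulated counts with known changes. A 2-fold change was called in 46% of changed rows for yolk sac against brain and 47% for E18.5 against E12.5. It was called in 25% for both adult comparisons, 12% to 20% for cycling cells and 4% (adult) to 16% (yolk sac) between plates. For a 4-fold change it was 85% to 95% between groups, 49% to 69% for cycling cells and 38% to 70% between plates. A member that did not pass may thus still have changed. Doublets were not removed beyond the authors' well annotation. Depth differs between groups, so low counts are least precise in the adult; intervals cover counting error only.

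The members and lists were chosen with earlier results of these data known. Named members were, per comparison and class, at most 3 called genes of largest change and at most 2 abundant ones that did not pass, members called in at least 3 comparisons, up to 2 called members per class in cycling cells and, per pathway list, the called gene with the largest change; others named were chosen after their values were seen, and some that the rule gives stand by count only. Promoter windows came from RefSeq (GRCm38.p6), not from the authors' build. Counts of genes with near-identical copies are uncertain: transcripts of Hnrnpa3, Hnrnpa1 and Hnrnpf share a 100-base stretch of their last 1000 bases with 23, 9 and 6 other genes. Those of Snrpa share such a stretch with 3, and those of Srsf3, Srsf10, Snrpc and Hnrnpk with 2 each. With 1 other gene it is shared by Srsf5, Snrpd1, Snrpe, Snrpf, Snrpg, Snrpn with Snurf, Snrpa1, Sf3b4, Hnrnpc, Hnrnph2, Hnrnpl and Hnrnpr.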

Additional observations from a re-analysis of the deposited data

Results flagged for a closer look

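In 9 of 156 groups of 4 or 6 libraries, 1 library stood apart from the rest of its group by Dixon's test at 95%, which chance alone does in about 1 in 20 groups. The SR protein sum of brain E12.5 library 3 was 1632 CPM, against 1936 to 1996 in the others. Hnrnpa2b1 was also lowest in that library, at 968 against 1206 to 1234. In yolk sac, Srsf6 had 211 in library 4 against 136 to 138, Sfswap 65.3 in library 2 against 96.4 to 100.3, and Hnrnpf 215 in library 1 against 285 to 294. In the adult, Hnrnpu had 282 in library 4 against 385 to 405, and Snrpa1 had 33.0 in library 2 against 40.2 to 41.6. Snrpe had 10.39 in adult library 3, which is its single adult UMI, and 0 in the others, and Snrpg had 56.8 in E18.5 library 3 against 0 to 20.9. Empty wells held 10 UMIs of members among 1008 UMIs, or 0.992%, beside 0.889% in the kept cells.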

How the results depend on the processing

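Named genes gave 1448 values under the alternatives, of which 1243 kept their side of the threshold, 188 lost a call and 16 gained one. In 1 more the sign changed with a call: Hnrnpu, yolk sac over brain, was −0.04 with all libraries and 0.51 within the shared sequencing batch. Changes of sign without a call in either fit stand among the 1243. Hnrnpu at E18.5 against E12.5, for example, ran from −0.31 to 0.53. Counts of called members that moved are as follows, and the cause was not tested. Yolk sac against brain (0 higher, 3 lower): batch as covariate 1 higher and 1 lower, shared batch 2 higher, without the first E12.5 brain plate 1 higher and 1 lower, and 1 lower with no filter, per plate or thinned. E18.5 against E12.5 (6 higher, 10 lower): no filter 3 higher, batch 1 higher and 3 lower, per plate 2 higher, without the second E12.5 brain plate 2 higher and 3 lower. Adult against E18.5 (0 higher): thinned 1 higher. Adult against E12.5 (3 higher, 19 lower): 1 higher with no filter, with at least 500 UMIs or without the first E12.5 plate, 9 lower with batch and 12 lower when thinned. Plates of E12.5 brain (4): no filter 2. Cycling, higher: yolk sac (10) 5 with no filter; E12.5 brain (5) 1 with no filter, 1 at 3 UMIs, 0 at 1 UMI and 0 with no library block; E18.5 (4) 0 with no filter, 2 at 3 UMIs, 2 at 1 UMI and 1 with no block.

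Leaving out each library gave 0 to 0 higher and 1 to 3 lower (yolk sac), 2 to 6 and 7 to 9 (E18.5 against E12.5), 0 to 0 and 10 to 13 (adult against E18.5), 2 to 4 and 15 to 18 (adult against E12.5), 21 to 26 for any brain stage, and 6 to 10, 2 to 4 and 0 to 4 higher in cycling cells, with 0 lower. The plates left out were chosen after seeing the data. No paired analysis was possible because, between groups, replicate numbers are accession order only; the cycling comparison paired cells by library.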
